A study of Enchytraeus albidus with 42 samples.

Results

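The contigs measured here were 171 of the 1035 transcripts (16.5%) on a custom single-colour Agilent array for the potworm Enchytraeus albidus. They were taken as all non-control spots whose systematic name begins with "Contig", and each contig had 1 probe, spotted 14 times. Adult worms with a clitellum were kept for 2 days in soil, and total RNA of whole worms from 1 test vessel was put on 1 array. The exposed groups received dimethoate, atrazine or carbendazim, each at the concentration that lowers the number of juveniles by 10, 20, 50 or 90% (EC10, EC20, EC50 and EC90). Dimethoate groups were set against a water control, and atrazine and carbendazim groups against a solvent control that carried the same acetone treatment. All 14 groups had 3 arrays, which makes 42 arrays in all.

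A contig is a consensus sequence put together from cDNA reads that overlap, so it usually stands for a transcript caught more than once when the library was read. Potworms are small soil annelids that live on decaying organic matter. Dimethoate is an organophosphate insecticide that blocks acetylcholinesterase, the enzyme that ends signalling at cholinergic synapses. Atrazine is a herbicide whose plant target is photosystem II, and carbendazim is a benzimidazole fungicide that binds tubulin and hinders microtubule assembly.

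Levels are given as normalised log2 signals, that is, the log2 of the mean background-corrected spot signal of a contig after a shift of each array. The shift is the median difference of the array from a reference array over all 1035 transcripts. Such a level can be compared between arrays for 1 contig but not between contigs, since every probe binds its target differently. Between 144 and 164 contigs were well above background on an array, and between 6 and 18 were saturated. In all, 130 contigs were well above background on all 42 arrays, 37 on some arrays and 4 (Contig41, Contig94, Contig138 and Contig152) on none. There were 6 contigs saturated on all arrays and 15 on some. The SD between spots of a contig on 1 array had a median of 0.09, against a median residual SD between replicate arrays of 0.43.

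Both arrays of 1 scan, dimethoate EC10 replicate 1 and dimethoate EC20 replicate 2, stood apart from their groups. Over the contigs their deviations from the group mean had an SD of 0.965 and 0.923, and the next array, dimethoate EC20 replicate 1, reached 0.743. The water and solvent controls had no slide in common. All groups share 1 residual spread in the fit, so these arrays bear on calls in every comparison, and counts of calls are also given without them where they changed by more than 1.5 times. Of 41 calls in contigs, 7 held with slide as a fixed block and 26 with scan as a random block. Whether scan or slide caused any of the changes was not tested.

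Most contigs varied much less than the widest-ranging ones. The range of a contig, its highest minus its lowest log2 signal over the 42 arrays, had a median of 2.14 and quartiles of 1.76 and 2.74. The 864 other transcripts had a median of 2.16 and quartiles of 1.71 and 2.73, so the contigs as a set ranged about as widely as the rest of the array. A few contigs ranged far more widely than this. A range over 4 was seen in 13 contigs and 52 other transcripts, over 6 in 6 contigs and 18 other transcripts, and over 8 in 4 contigs. The widest were Contig8 with 9.57, Contig119 with 9.26, Contig167 with 8.92, Contig135 with 8.74, Contig19 with 7.07 and Contig126 with 6.76. Contig143 (5.19), Contig117 (5.05), Contig129 (4.62) and Contig85 (4.37) followed. Of these, Contig143 was well above background on 33 of the 42 arrays and Contig117 on 17. With background correction by normexp these 4 ranges were 1.68, 1.15, 3.42 and 2.93 in the same order, while the 6 widest contigs were the same. Without the deviating scan a range over 4 was left in 9 contigs and over 6 in 6, and the 7 widest were the same contigs. None of the 10 contigs named here could be given a protein name.

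**Figure D1:**
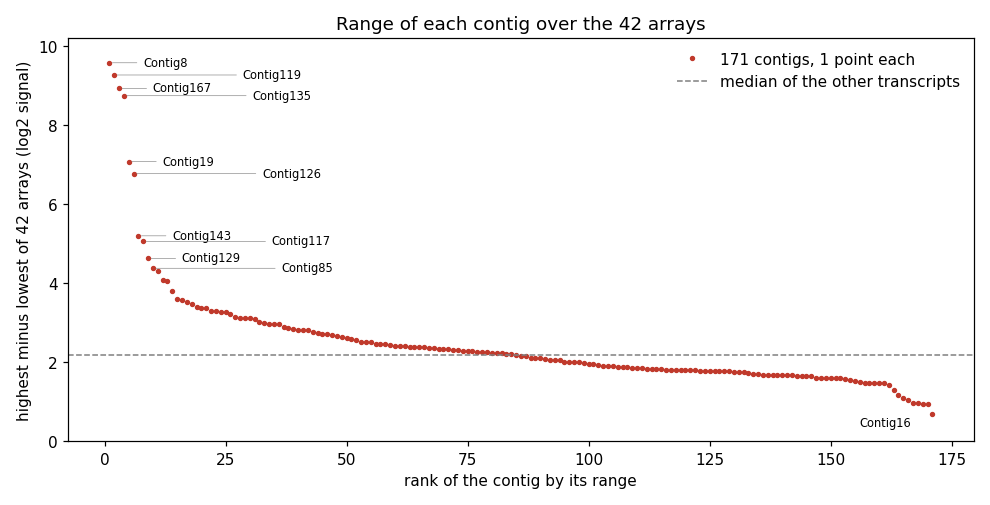
Each point is 1 contig, with its rank on the horizontal axis and, on the vertical axis, its highest minus its lowest log2 signal over the 42 arrays. The 6 labelled points above 6 stand apart, while most lie near the dashed line, the median of the other transcripts (2.16).

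At the other end stood Contig16, annotated as subunit VIa of cytochrome c oxidase, the last enzyme of the respiratory chain. Its range was 0.68, the smallest of the contigs over the 42 arrays. Contig175, with 0.52, had the smallest range when the deviating scan was left out. Contig16 read 12.71, 12.70 and 12.75 on the dimethoate EC90 arrays, against 13.00, 13.14 and 13.13 on the water control arrays. These groups did not overlap, as in 24.6% of all transcripts. The change of -0.37 had an adjusted p of 0.257 by limma with Benjamini-Hochberg adjustment, and of 0.0409 without the deviating scan. The next smallest ranges were 0.93 for Contig59, 0.94 for Contig80, annotated as a carrier protein, 0.96 for Contig76 and 0.97 for Contig32. In total, 5 contigs ranged over less than 1.

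Contig8 ranged most widely, and a large share of that range lay between replicate arrays of the same group. In the water control it read 11.40, 6.60 and 5.68. On dimethoate EC10 arrays it read 14.86, 8.80 and 8.48, and at EC20 it read 7.34, 13.91 and 12.14. Those 3 groups each held 1 array or more far from the others, and their SDs were 3.07 for the water control, 3.60 for EC10 and 3.40 for EC20. At dimethoate EC50 Contig8 read 14.52, 12.12 and 14.05, and at EC90 it read 12.32, 9.70 and 11.38. All EC50 arrays were above all water control arrays, whereas the EC90 arrays overlapped with them.

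The acetone-treated groups differed widely in their spread. Contig8 had SDs from 0.07 at carbendazim EC10 to 2.09 at atrazine EC20. In the solvent control it read 14.53, 14.60 and 14.41, an SD of 0.09. With atrazine it read 14.99, 13.74 and 15.25 at EC10, 14.29, 10.65 and 10.70 at EC20, 9.63, 13.37 and 12.78 at EC50, and 13.45, 11.68 and 13.42 at EC90. Each of the 3 higher atrazine concentrations lay wholly below the solvent control, but the changes of -2.63, -2.59 and -1.66 were not called (adjusted p from 0.543 to 0.795, limma). Groups did not overlap in 6.67, 8.89 and 17.0% of all transcripts in these 3 comparisons. With carbendazim it read 13.09, 13.09 and 13.22 at EC10, 12.21, 9.17 and 13.07 at EC20, 12.41, 11.81 and 12.55 at EC50, and 14.79, 14.89 and 13.67 at EC90. The carbendazim EC20 change of -3.03 had an adjusted p of 0.463, and EC90 differed from the solvent control by -0.06.

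Over the 42 arrays, group explained 55.4% of the variance of Contig8 and 56.1% of that of Contig119. For Contig167 it explained 71.0% and for Contig135 72.4%. With 14 means fitted to 42 arrays, part of such a share comes from the spread between arrays alone. Contig117 and Contig85 had shares of 35.5% and 30.4% and were not called over the 14 groups (adjusted p = 0.457 and 0.590, moderated F-test). The moderated F-test over the 14 groups gave an adjusted p of 0.0494 for Contig8, 0.0425 for Contig119, 0.000869 for Contig167 and 0.000588 for Contig135. It gave 0.0796 for Contig19 and 0.196 for Contig126, which were not called over the 14 groups. Without the deviating scan the adjusted p was 0.000824 for Contig19 and 0.00251 for Contig126, so both were then called, as were the other 4.

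**Figure D2:**
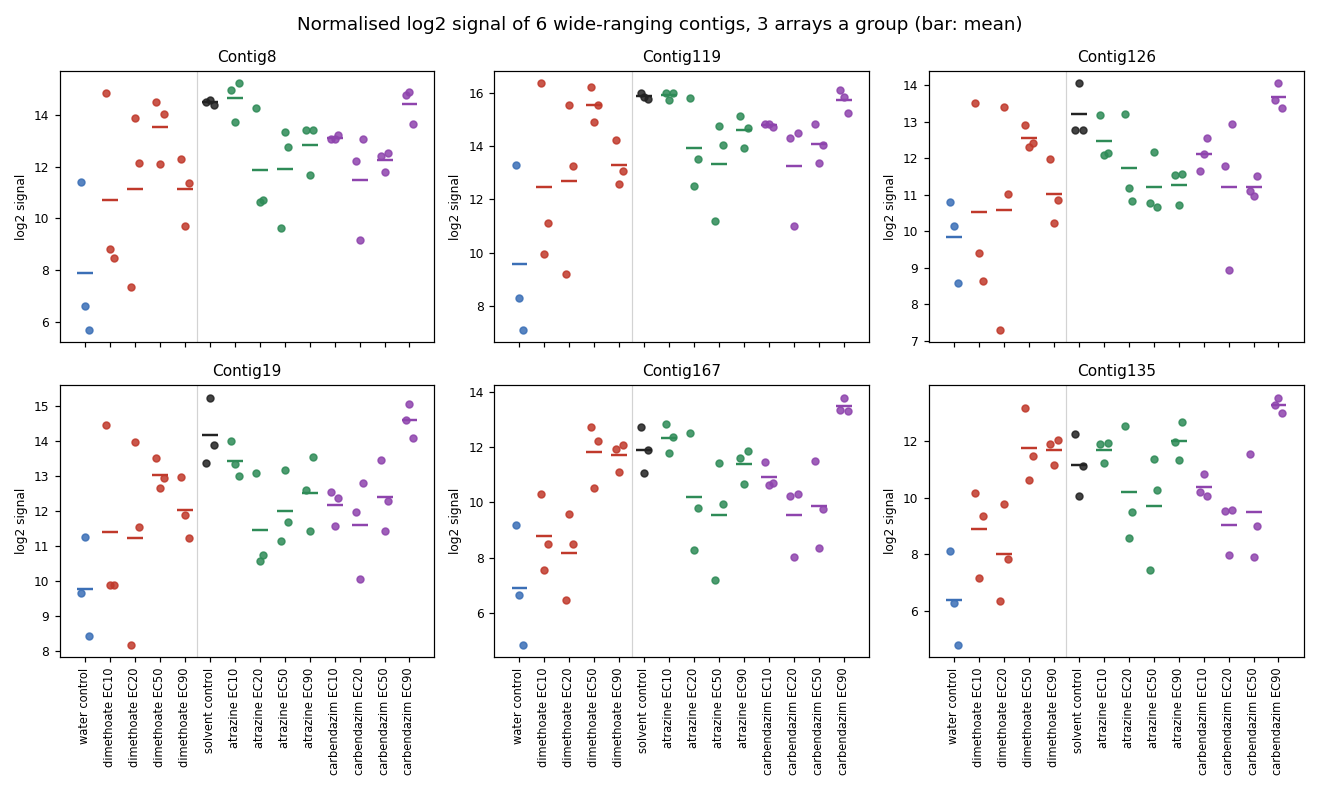
Log2 signal (vertical axes, not from 0) of the 6 contigs with the widest range in each of the 14 groups, with 1 point per array and a bar at the group mean. The water control is low in every panel, and dimethoate EC10 and EC20 hold arrays far apart from each other, such as 14.86 and 8.48 for Contig8 at EC10.

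The level of Contig119 followed that of Contig8 most closely among the contigs. Over the 42 arrays Pearson's r was 0.98 and Spearman's rho 0.97, and r was 0.97 for the deviations from the group means. Contig126 (r = 0.89, rho = 0.89), Contig19 (0.87, 0.90), Contig167 (0.86, 0.79) and Contig135 (0.80, 0.71) came next. Without the 2 arrays farthest from the median of Contig8, r was 0.97, 0.91, 0.89, 0.80 and 0.72 for these 5 contigs in the same order. Over the 40 arrays outside the deviating scan r was 0.98, 0.89, 0.86, 0.89 and 0.82. These values describe likeness over arrays that share slides, scans and group means, and no p is given with them.

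A small group of transcripts shared this pattern, while the contigs as a whole did not. The median r with Contig8 over the other contigs was 0.00 and the lowest was -0.50. Above an r of 0.75 there were 8 contigs (the 5 above with Contig143, Contig121 and Contig168) and 9 other transcripts. Of those 9 transcripts, 3 are annotated as MADS FLC-like protein 2 and 6 have no name here. Within the group, Contig167 and Contig135 were most alike with an r of 0.97, and Contig126 and Contig19 had an r of 0.92.

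**Figure D3:**
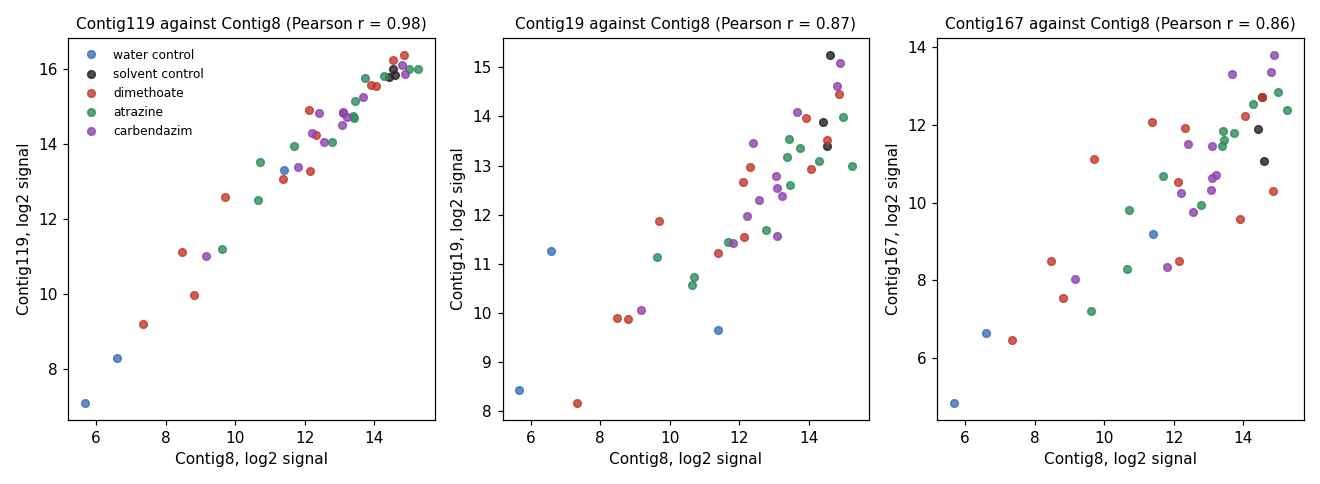
Log2 signal of Contig119, Contig19 and Contig167 (vertical axes) against that of Contig8 (horizontal axes), with 1 point for each of the 42 arrays. The points of Contig119 lie closest to a line (r = 0.98), those of Contig19 (0.87) and Contig167 (0.86) more loosely.

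The first set of comparisons asked which contigs responded to dimethoate in comparison to the water control. At EC10 and EC20 no contig was called by limma at an adjusted p under 0.05, and no transcript of the array was (0.0%). Before adjustment, 12 contigs at EC10 and 17 at EC20 had a p under 0.05, against 7.25% and 13.1% of all transcripts, and the methods' t-test had 6 and 1, against 2.71% and 1.93%. Without the deviating scan no contig was called either, and 3 and 2 passed before adjustment. The median change of the contigs was -0.05 at EC10 and 0.08 at EC20, and that of all transcripts 0.00 and 0.04.

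At dimethoate EC50, 6 contigs rose and none fell, against 1.55% of all transcripts higher and 0.0% lower. Before adjustment 18 contigs had a p under 0.05, against 7.92% of all transcripts. In whole-worm RNA, a change in the number of cells that make a transcript and a change of its amount per cell cannot be told apart. The 6 contigs were Contig8, Contig119, Contig135, Contig143, Contig167 and Contig107. All but Contig107 are among the widest-ranging contigs.

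Contig135 read 13.18, 10.62 and 11.47 at EC50, against 8.11, 6.29 and 4.81 in the water control. The change was 5.36 ± 1.03 (SE) on the log2 scale with an adjusted p of 0.00491 by limma. Contig167 read 12.72, 10.52 and 12.22 at EC50, against 9.19, 6.64 and 4.86 in the water control, a change of 4.93 ± 1.04 with an adjusted p of 0.00577. For both contigs the lowest exposed array lay above the highest control array. Among all transcripts, 28.8% had groups that did not overlap in this comparison, as did 47 contigs.

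Contig119 read 16.22, 14.88 and 15.54 at dimethoate EC50, against 13.29, 8.29 and 7.10 in the water control, and rose by 5.99 ± 1.38 (adjusted p = 0.0139, limma). It was saturated on 1 of the EC50 arrays. Contig8 rose by 5.67 ± 1.48 (adjusted p = 0.0389). In both contigs water control replicate 1 was much higher than the other control arrays, and the groups still did not overlap.

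Contig143 and Contig107 were not well above background on any water control array. Contig143 read 7.06, 5.09 and 6.47 at EC50, against 3.65, 1.91 and 2.48 in the water control (adjusted p = 0.00491), which was at least 5.91-fold higher. The bound sets the EC50 mean against the mean over the control arrays of the lowest signal well above background. It depends on the background correction: at 2.56 on the log2 scale it exceeded the normexp range of Contig143 over all arrays (1.68). Contig107 read 2.82, 2.14 and 3.26 at EC50, against 1.62, 1.18 and 1.49 in the water control, a difference in signal of 1.31 (adjusted p = 0.0162). It was well above background on 1 of the 3 EC50 arrays only, and no fold is given for it.

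The EC50 calls depended on single arrays. Without water control replicate 3, or without dimethoate EC50 replicate 1, none of the 6 contigs was called, with changes of 4.56 and 4.64 for Contig135 (adjusted p = 0.103 and 0.0717). Without water control replicate 2 or EC50 replicate 3, 3 contigs were called. Without the 2 arrays of the deviating scan, 12 contigs were called, against 3.19% of all transcripts, and all were higher.

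At dimethoate EC90, 7 contigs rose and none fell, against 3.19% of all transcripts called (2.9% higher and 0.29% lower). Before adjustment 14 contigs passed, against 9.76% of all transcripts. Of the 7 called contigs, Contig135, Contig143 and Contig167 had also risen at EC50, and Contig92, Contig74, Contig103 and Contig26 were added. Contig135 read 11.91, 11.15 and 12.03 at EC90, a change of 5.30 (adjusted p = 0.00118, limma), and Contig167 read 11.93, 11.11 and 12.08, a change of 4.81 (adjusted p = 0.00292). Contig143 read 6.45, 6.04 and 6.10 (adjusted p = 0.00124), at least 5.88-fold above the water control. This bound of 2.56 on the log2 scale also exceeded its normexp range of 1.68. All 7 called contigs had EC90 arrays above every water control array, as did 28 contigs in either direction and 24.6% of all transcripts. The EC50 and EC90 groups share the water control arrays, so the 2 sets of calls are not separate observations.

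Contig92, which has no protein name here, was called at EC90 with lower levels at the concentrations below it. It read 1.75, 2.03 and 2.14 in the water control, 2.32, 1.70 and 1.93 at EC10, 2.21, 2.28 and 2.89 at EC20, 2.98, 3.32 and 3.72 at EC50, and 4.36, 3.93 and 4.34 at EC90. The means of EC10 and of the water control differed by 0.01. The EC50 change of 1.37 had an adjusted p of 0.0582 (0.0405 without the deviating scan), and the EC90 change of 2.23 ± 0.38 had an adjusted p of 0.000239, the smallest of the contigs in that comparison. The contig was well above background on 2 of the 3 EC90 arrays and on no water control array, which gives at least 1.48-fold.

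Contig74, also without a name, was well above background on all arrays. It read 7.03, 6.62 and 6.74 at dimethoate EC90, against 4.81, 5.03 and 4.79 in the water control, and rose by 1.92 ± 0.41 (adjusted p = 0.00259, limma). At EC10 and EC20 the arrays of the deviating scan read 7.34 and 7.23, while the other arrays of these groups lay between 5.00 and 5.51. The changes of 1.11 and 0.98 at those concentrations were not called (adjusted p = 0.537 and 0.357), and without the deviating scan they were 0.43 and 0.28.

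Contig103 is annotated as the actin-related protein Arp2, a subunit of the complex that starts new branches on actin filaments. It read 6.95, 6.60 and 6.92 at dimethoate EC90, against 5.97, 6.10 and 5.96 in the water control. This rise of 0.81 ± 0.20 was small and was called (adjusted p = 0.0131, limma). At EC50 it read 6.39, 6.32 and 6.42, all above the control, with an adjusted p of 0.827. Leaving out any 1 of 4 arrays took the EC90 call of Contig103 away. Without dimethoate EC90 replicate 1 the EC90 change was 0.75 with an adjusted p of 0.0996.

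Contig26 is annotated as heat shock protein gp96, the chaperone of the endoplasmic reticulum. It read 3.24, 2.67 and 4.12 at dimethoate EC90, against 1.93, 1.54 and 1.95 in the water control, and the adjusted p of 0.0496 was just inside the threshold. Only 1 EC90 array, and no control array, was well above background, so no fold is given. Leaving out any 1 of 28 arrays took this call away. Background correction by normexp left a change of 0.11 in Contig26 and of 0.24 in Contig92 at EC90, and neither was called (adjusted p = 0.999 and 0.679).

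**Figure D4:**
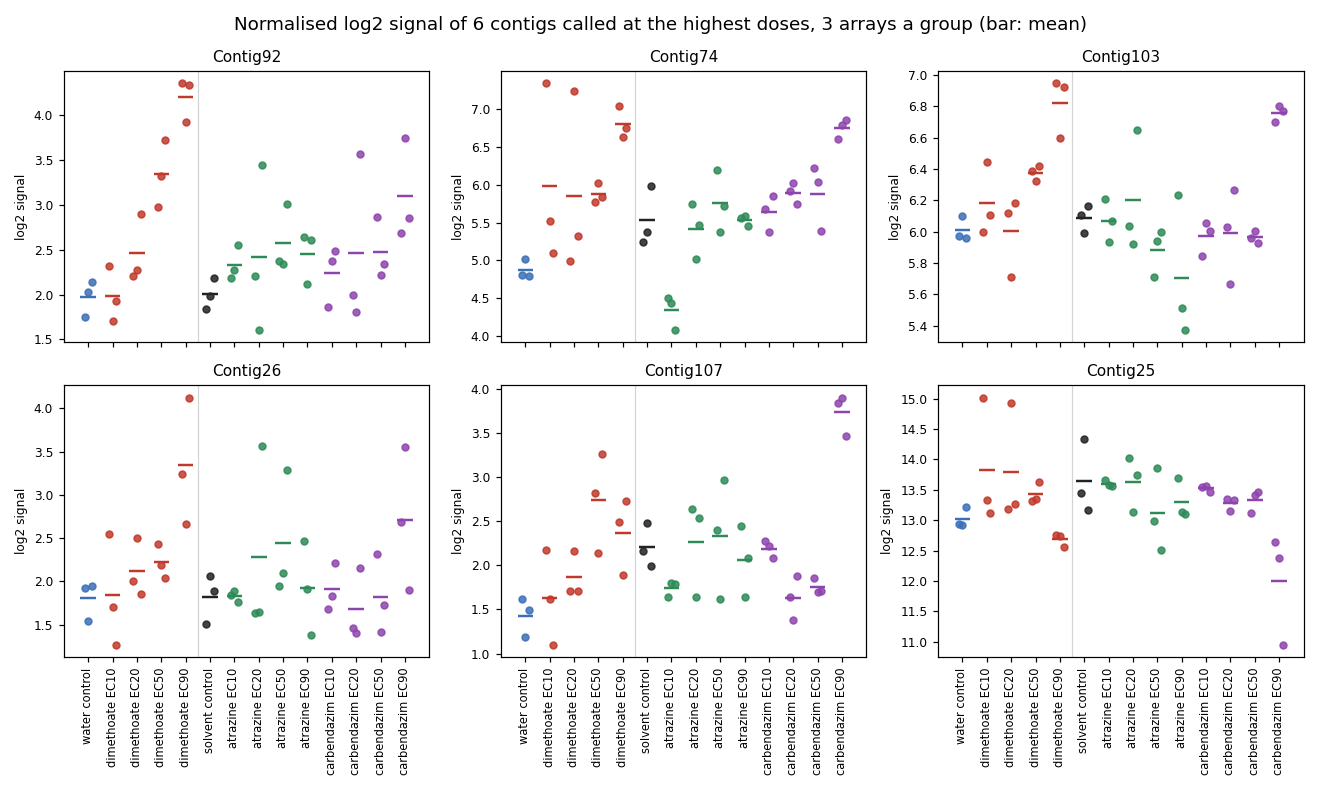
Log2 signal (vertical axes, not from 0) of 6 contigs called at the highest concentrations in each of the 14 groups, with 1 point per array and a bar at the group mean. Contig92, Contig74, Contig103 and Contig26 are highest at dimethoate EC90, Contig107 is highest and Contig25 lowest at carbendazim EC90.

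The 2 controls were compared with each other, since the solvent control differs from the water control by acetone. In the solvent control 8 contigs rose and none fell, against 1.84% of all transcripts called (1.64% higher and 0.193% lower). Contig8 read 14.53, 14.60 and 14.41 in the solvent control, against 11.40, 6.60 and 5.68 in the water control, a change of 6.62 ± 1.48 (adjusted p = 0.00868, limma). Contig119 (6.31, adjusted p = 0.00798), Contig167 (4.99, 0.00643), Contig135 (4.76, 0.00737) and Contig19 (4.39, 0.0184) rose too, and Contig119 was saturated on 1 solvent control array. Contig143 was at least 4.03-fold higher in the solvent control (adjusted p = 0.0115), a log2 bound of 2.01 that exceeded its normexp range of 1.68. All 8 contigs had solvent control arrays above every water control array, as did 41 contigs in either direction and 27.0% of all transcripts. The dimethoate EC50 and EC90 changes given above rest on the same water control arrays.

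Contig121 and Contig168 rose by less. Contig121 read 15.96, 16.31 and 15.65 in the solvent control, against 14.32, 14.51 and 14.31 in the water control, a change of 1.59 (adjusted p = 0.0184, limma). Contig168 read 14.85, 15.39 and 14.68 in the solvent control, against 12.97, 13.53 and 13.09 in the water control, a change of 1.78 (adjusted p = 0.0115). Neither pair of groups overlapped. Without water control replicate 3 no contig was called between the controls, without water control replicate 2 there were 4, and without solvent control replicate 2 there were 5. There were 15 called without the deviating scan, 9 of them higher, against 5.51% of all transcripts. With slide as a fixed block none was. Because the controls share no slide, acetone and slide cannot be told apart in these 8 contigs.

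The dimethoate groups and the solvent control share the low water control as the other side of their comparison. Set against the solvent control instead, dimethoate had no called contig at EC10, EC20 or EC50, and at EC90 it had 3 (Contig92, Contig103 and Contig98), against 3.09% of all transcripts called at EC90. Contig92 was higher by 2.21 (adjusted p = 0.00059, limma), Contig98 by 1.47 (0.0356) and Contig103 by 0.73 (0.0373). Contig135 differed from the solvent control by 0.60 at dimethoate EC50 and 0.54 at EC90, and Contig8 by -0.95 and -3.38, none of them called. Contig74 and Contig26, with differences of 1.26 and 1.52 at EC90, had adjusted p values of 0.0960 and 0.0539. Contig92 and Contig26 were not well above background on any solvent control array, so theirs are differences in signal. At dimethoate EC90 Contig92 was well above background on 2 arrays and Contig26 on 1.

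Within the slide that held all dimethoate EC50 and EC90 arrays and water control replicate 3, the differences had the same direction. At EC50 they were 7.88 for Contig8, 8.45 for Contig119, 6.95 for Contig135, 6.96 for Contig167, 3.73 for Contig143 and 1.25 for Contig107. At EC90 they were 2.07 for Contig92, 2.01 for Contig74, 0.86 for Contig103 and 1.39 for Contig26. The slide held 1 control array, the lowest of the water control for Contig8, Contig119, Contig135 and Contig167, so these values have no replicate on the control side.

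Carbendazim was compared with the solvent control to see which contigs respond to a compound that binds tubulin. No contig was called at EC10, EC20 or EC50, where 0.193, 0.0966 and 0.386% of all transcripts were. Before adjustment the 3 concentrations had 17, 16 and 14 contigs with a p under 0.05 by limma, against shares of all transcripts between 9.86% (EC50) and 10.7% (EC10), and the methods' t-test had 20, 24 and 30, against 11.2, 14.9 and 16.1%. Without the deviating scan, whose 2 arrays are not carbendazim arrays, 7, 6 and 11 contigs were called at these concentrations, against 4.25, 5.6 and 6.86% of all transcripts. All EC10 and EC20 arrays lay on 1 slide that held no solvent control array, so at these concentrations carbendazim and slide cannot be told apart. At EC90, 1 contig rose and 1 fell, against 3.77% of all transcripts called (1.93% higher and 1.84% lower). Before adjustment 27 contigs passed at EC90, 21 of them upward, against 17.1% of all transcripts, and the contigs had a median change of 0.12 against 0.03 for all transcripts. The count was 16 without the deviating scan, against 13.6% of all transcripts. With slide as a fixed block, or scan as a random block, no contig was called at EC90. Within the slide that held 2 EC90 arrays and 1 solvent control array, the differences were 1.49 for Contig107 and -1.64 for Contig25.

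Contig107 was the contig that rose. It read 3.84, 3.90 and 3.46 at carbendazim EC90, against 2.17, 2.47 and 1.99 in the solvent control, a difference in signal of 1.52 (adjusted p = 0.00303, limma). At EC50 it read 1.86, 1.70 and 1.71, below the solvent control. Over all groups it was well above background on 2 of 42 arrays, 1 of them at carbendazim EC90, so its signal lay near the detection limit and no fold is given. With normexp background correction the difference was -0.08 (adjusted p = 0.755).

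Contig25 was the contig that fell. It read 12.64, 12.38 and 10.95 at carbendazim EC90, against 13.44, 14.34 and 13.16 in the solvent control, a change of -1.66 ± 0.43 (adjusted p = 0.0234, limma). Replicate 3 of carbendazim EC90 was the low array. Without it Contig25 changed by -1.14 (adjusted p = 0.198), and without solvent control replicate 2 by -1.31 (adjusted p = 0.177). At dimethoate EC90 Contig25 read 12.75, 12.75 and 12.56, below the water control at 12.94, 12.91 and 13.21, and this change of -0.33 was not called (adjusted p = 0.983).

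Several contigs that rose at dimethoate EC90 were also high at carbendazim EC90 without being called there in the fit of all arrays. Contig103 read 6.70, 6.80 and 6.77 at carbendazim EC90, against 6.11, 5.99 and 6.16 in the solvent control (0.67, adjusted p = 0.0521, limma; 0.0117 without the deviating scan). Contig74 read 6.60, 6.79 and 6.85, against 5.24, 5.37 and 5.99 in the solvent control (1.21, adjusted p = 0.0902, and 0.000533 without that scan). The difference in signal of Contig92 had an adjusted p of 0.0966. Contig92 was not well above background on any array of these groups, so its level there lay below clear detection. Contig135 read 13.30, 13.55 and 12.99, against 12.28, 10.06 and 11.14 in the solvent control, and this difference of 2.12 had an adjusted p of 0.287. In these 4 contigs the carbendazim EC90 and solvent control arrays did not overlap, as in 29.0% of all transcripts.

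Atrazine had no called contig at any concentration, and no transcript of the array was called (0.0%). Without the deviating scan, whose arrays are not atrazine arrays, 1, 1 and 3 contigs were called lower at EC10, EC20 and EC90, against 0.0966, 0.193 and 3.29% of all transcripts. They were Contig74 at EC10, Contig121 at EC20, and Contig121, Contig122 and Contig168 at EC90. Before adjustment limma gave 5, 4, 16 and 8 contigs with a p under 0.05 from EC10 to EC90, against 3.0, 5.22, 10.0 and 8.79% of all transcripts, and the methods' t-test gave 9, 2, 5 and 11, against 5.6, 2.51, 3.48 and 7.54%. The smallest adjusted p at EC90 was 0.364, in Contig113, and at EC10 it was 0.885, in Contig74. Contig74 read 4.51, 4.44 and 4.08 at atrazine EC10, all below the solvent control at 5.24, 5.37 and 5.99, a change of -1.19 (adjusted p = 0.00973 without the deviating scan). Groups did not overlap in 13.2% of all transcripts in this comparison. Atrazine EC10 was the group in which 52 contigs (30.4%) and 16.4% of all transcripts had their lowest mean, and the median change of the contigs there was -0.13 against -0.06 for all transcripts.

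**Figure D5:**
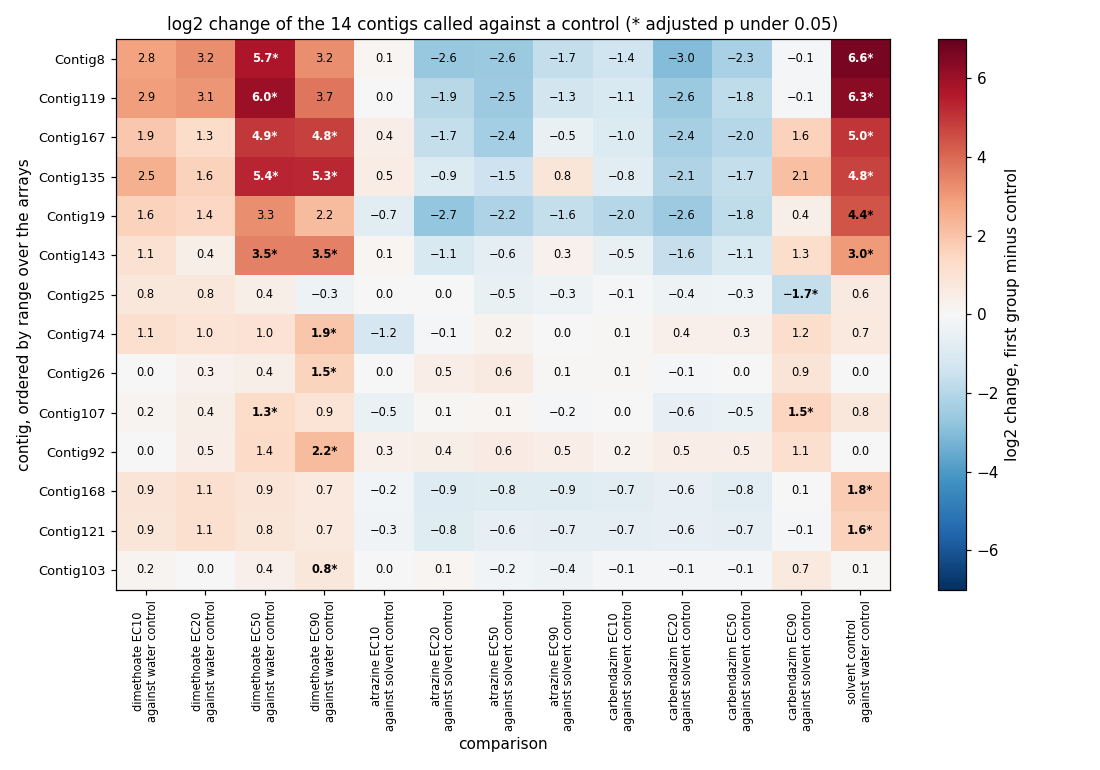
Log2 change of the 14 contigs called in at least 1 comparison with a control (rows) in each of the 13 comparisons (columns), first group minus control, with called changes starred. Reds fill the dimethoate and solvent control columns for the 4 widest-ranging contigs, such as 5.67 and 6.62 for Contig8, while the atrazine columns hold no star. For Contig143, Contig92, Contig26 and Contig107 the values are differences in signal that include arrays not well above background.

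Within dimethoate, the higher concentrations (EC50 and EC90) were set against the lower ones (EC10 and EC20). Of the contigs, 15 were higher and 3 lower at the higher concentrations, and 17.3% of all transcripts were called (9.76% higher and 7.54% lower). Contig167 differed by 3.29, Contig135 by 3.28, Contig143 by 2.80 and Contig92 by 1.55, and their arrays did not overlap between the 2 sides, as in 5.8% of all transcripts. Contig92 was well above background on 4 of the 6 arrays of the higher concentrations and on 1 of the 6 of the lower ones, and Contig143 on 6 and 3, so theirs are differences in signal. Contig122 was the only other contig without overlap. It read 9.81, 9.66 and 9.66 at EC50 and 9.68, 9.60 and 9.62 at EC90, against 11.41, 10.41 and 9.97 at EC10 and 10.09, 11.63 and 10.09 at EC20, a difference of -0.93 (adjusted p = 0.00257, limma).

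All EC50 and EC90 arrays lay on 1 slide, which held no EC10 or EC20 array, so concentration and slide cannot be told apart here. With slide as a fixed block, which is then estimated through other groups, none of the 18 contigs was called.

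The deviating scan lies on the low-concentration side of this comparison and bears on most of these calls. Without its 2 arrays 15 contigs were called, against 7.92% of all transcripts, of which 6 were among the 18, namely Contig92, Contig107, Contig122, Contig135, Contig143 and Contig167. The differences were then 4.02 for Contig167, 4.05 for Contig135, 3.26 for Contig143, 1.59 for Contig92 and -0.47 for Contig122. Contig10, a myosin heavy chain, read 12.49 on the deviating EC20 array, against 14.63 and 14.57 on the other EC20 arrays, and its difference of 0.66 (adjusted p = 0.0448) was 0.16 (adjusted p = 0.520) without the scan. Contig20 changed in the same way, with 1.00 against 0.39 without the scan. Scaling to the 75th percentile gave 21 called contigs, of which 8 were higher. The share of all transcripts under this scaling is not given here, so the count does not set contigs apart.

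Atrazine and carbendazim had no contig that was called between their higher and lower concentrations. Limma called 0.0% of all transcripts for atrazine and 0.966% for carbendazim. Before adjustment 39 and 14 contigs had a p under 0.05, against 15.5 and 8.6% of all transcripts. Among atrazine contigs 33 of the 39 were higher at EC50 and EC90. Leaving out atrazine EC50 replicate 2 gave 26 called contigs, for which no share of all transcripts is given here. With the deviating scan left out, 15 contigs were called for atrazine and 1 for carbendazim, against 6.18 and 2.22% of all transcripts. For carbendazim the smallest adjusted p was 0.0508, in Contig107.

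Across all 14 groups, the moderated F-test called 18 contigs, against 10.6% of all transcripts, and 39 before adjustment, against 25.2%. It called 35 without the deviating scan, against 21.0%. Contig136 and Contig107 had the smallest adjusted p (0.000321 for both). Contig136 is annotated as chordin-like cysteine-rich transmembrane BMP regulator 1, a protein that in vertebrates modulates bone morphogenetic protein signals.

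Contig136 was higher at every carbendazim concentration than in the solvent control. It read 4.66, 3.78 and 4.42 in the solvent control, 5.44, 5.34 and 5.29 at EC10, 5.60, 4.89 and 5.42 at EC20, 5.34, 5.28 and 5.67 at EC50, and 5.11, 5.16 and 4.91 at EC90. Over the solvent control arrays the lowest signal well above background had a mean of 4.075, so Contig136 lay near the detection limit there. No carbendazim array overlapped with the solvent control, as in 21.2, 27.1, 25.8 and 29.0% of all transcripts from EC10 to EC90. The changes of 1.07, 1.02, 1.15 and 0.78 were nevertheless not called one by one (adjusted p = 0.318, 0.251, 0.180 and 0.273, limma). The changes at EC10, EC20 and EC50 were called when the deviating scan was left out (adjusted p = 0.0333, 0.0353 and 0.0209). Its lowest group was dimethoate EC10 with 2.81, 3.71 and 3.94, against 3.67, 4.14 and 4.15 in the water control, a change of -0.50 (adjusted p = 0.602). The array at 2.81 is of the deviating scan, and without it the change was -0.16.

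A protein name could be matched to 30 of the 171 contigs (17.5%), and to 195 of the other transcripts (22.6%). Of the named contigs 17 belong to the cytoskeleton and muscle. They are 7 actins, 5 myosin heavy chains, Arp2, a calponin homolog, an alpha tubulin, a sarcoplasmic calcium-binding protein and an SCBP3 protein. Their ranges lay between 1.46 and 3.47 with a median of 2.40, so none belonged to the wide-ranging contigs.

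Of this list, Contig103 (Arp2) was called at dimethoate EC90 and, with Contig10, between the dimethoate concentrations. In the other 12 comparisons with a control none of the 17 was called in the fit of all arrays. Their median change was -0.28 at dimethoate EC10 and -0.34 at EC20, where 13 and 12 of the 17 lay below 0, against medians of 0.00 and 0.04 over all transcripts. The arrays of the deviating scan belong to those groups, and without them the medians were -0.01 and 0.00, with 9 and 8 of the 17 below 0. At dimethoate EC50 and EC90 the medians were 0.06 and -0.02. With carbendazim they were 0.22, 0.22, 0.19 and 0.22 from EC10 to EC90, against 0.03, 0.02, 0.01 and 0.03 over all transcripts. Among the comparisons with a control the highest median was at atrazine EC50, with 0.30 and 14 of the 17 above 0, and at atrazine EC10, EC20 and EC90 they were -0.09, 0.07 and 0.13. All of these share the solvent control, which had a median of -0.16 against the water control, with 13 of the 17 below 0. Contig10, a myosin heavy chain, was called higher at every carbendazim concentration without the deviating scan (changes from 0.58 to 0.73).

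Contig97, the alpha tubulin and thus of the protein family that carbendazim binds, read 9.65, 9.94 and 8.47 at carbendazim EC90, against 8.28, 8.21 and 8.43 in the solvent control. All exposed arrays lay above the control, and the change of 1.05 ± 0.40 was not called (adjusted p = 0.152, limma). At EC10, EC20 and EC50 its changes were 0.56, 0.76 and 0.50, each without overlap and none called. Groups did not overlap in 21.2, 27.1, 25.8 and 29.0% of all transcripts from EC10 to EC90. Contig64, an actin, went the other way. It read 13.19, 12.53 and 11.05 at carbendazim EC90, against 14.00, 13.36 and 13.34 in the solvent control, a change of -1.31 (adjusted p = 0.0564, and 0.0222 without the deviating scan).

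The 3 contigs of energy metabolism were the gamma subunit of mitochondrial ATP synthase (Contig31), cytochrome oxidase subunit I (Contig34) and Contig16. The 3 of protein synthesis were ribosomal proteins L3 (Contig54) and S7 (Contig68) and elongation factor 1-alpha (Contig24), which brings aminoacyl-tRNA to the ribosome. None of these 6 was called in any of the 13 comparisons with a control in the fit of all arrays. Contig16 was called at dimethoate EC90, and Contig31 at carbendazim EC10, EC20 and EC50, when the deviating scan was left out. The median change of the energy list lay between -0.41 in the solvent control against water and 0.58 at atrazine EC90, and that of the protein synthesis list between -0.35 at dimethoate EC10 (-0.19 without the deviating scan) and 0.14 at carbendazim EC20. Of the 5 named contigs in no list, only Contig28, annotated as alpha 1, was called in the fit of all arrays, with 0.69 between the dimethoate concentrations (adjusted p = 0.0235, limma), and without the deviating scan its difference was 0.24 (adjusted p = 0.354). Without that scan Contig28 was called higher at carbendazim EC50 (0.63, adjusted p = 0.0351). Contig125, annotated as KIAA0550 protein, was then called lower in the solvent control than in the water control (-1.15, adjusted p = 0.0457).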

How the data were processed

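The deposited intensity values are those of Agilent Feature Extraction 10.5.1.1 per the file headers: the authors scanned 42 single-colour (Cy3) arrays, and the software subtracted background from each spot (processed signal). The value table of the whole series held the same numbers and was not used further. From these, control spots and outlier-flagged spots were left out, 8 to 14 spots of each contig were averaged, and log2 was taken. Each array was then shifted by its median difference from a reference array over all 1035 transcripts (shifts -1.29 to 0.50). Each array is a separate vessel per the labels, and the number of arrays limits the precision.

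One fit of 14 group means on all transcripts was made with limma 3.58.1 (lmFit, eBayes, 28 residual degrees of freedom) in R 4.3.3, with Benjamini-Hochberg adjustment over 1035 transcripts and a threshold of 0.05. The fit was tested on simulated data. Tables came from pandas 2.3.3 and figures from matplotlib 3.10.9 (Python 3.11.15). A probe counted as well above background on an array where a share of more than 0.5 of its unflagged spots was so marked. Names came from the study's annotation, matched to contigs through identical log2 ratios, and were grouped by keyword. Named were the 10 contigs of widest and the 5 of smallest range, those called against a control, the 5 most like Contig8 and up to 4 per list; others were chosen after their values were seen. Contigs and lists were chosen with earlier results of these data known. Alternatives were normexp with offset 50, 75th-percentile and quantile scaling, all spots, detected transcripts only, slide, scan or replicate as blocks, the methods' t-test, and leaving out each array. The study's own fold changes were not used as results.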

Additional observations from a re-analysis of the deposited data

Results flagged for a closer look

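The change of 1 pesticide against its control was set against that of another at the same effect level, over 12 such differences across all transcripts by limma. In contigs, 17 differences had an adjusted p under 0.05. Dimethoate changes are relative to the water control and the others to the solvent control, and the controls themselves differ in 5 of these contigs, so the dimethoate differences hold that gap too.

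At EC50, dimethoate exceeded carbendazim in 6 contigs, against 1.74% of all transcripts called: Contig8 by 7.93, Contig119 by 7.77, Contig135 by 7.03, Contig167 by 6.94, Contig143 by 4.61 and Contig107 by 1.76. Dimethoate exceeded atrazine at EC50 in 5 contigs, against 1.45%: Contig119 by 8.53, Contig8 by 8.26, Contig167 by 7.29, Contig135 by 6.81 and Contig143 by 4.16. Leaving out 1 array at a time, Contig135 and Contig167 kept both calls. Contig8 lost the difference from carbendazim without any of 10 arrays and that from atrazine without any of 8, and without water control replicate 3 these were 6.82 and 7.15 (adjusted p = 0.184 and 0.137). Contig119 lost its calls without any of 9 and 2 arrays, Contig143 that from atrazine without any of 5, and Contig107 without any of 8. Contig107 and Contig143 were not well above background in the water control, so theirs are differences in signal.

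At EC90, carbendazim and atrazine differed in 5 contigs, against 2.8% of all transcripts, and here both share the solvent control. Contig107 (1.68) and Contig103 (1.05) were higher with carbendazim and kept this call without any single array. Contig103 read 6.70, 6.80 and 6.77 with carbendazim, against 6.23, 5.51 and 5.37 with atrazine. Contig64 (-1.73), Contig104 (-1.45) and Contig87 (-1.38) were lower with carbendazim. Carbendazim EC90 replicate 3 was the low array in all 3 of these, and without it the differences were -1.12, -0.75 and -0.76 with adjusted p values of 0.222, 0.504 and 0.452. Dimethoate exceeded atrazine at EC90 in Contig103 by 1.19, against 1.06% of all transcripts, and this call was lost without any of 8 arrays.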

How the results depend on the processing

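Contigs called by each alternative follow. These counts show how far the calls depend on the processing. Where no share of all transcripts is given for a setting, the count does not set contigs apart from other transcripts. By limma without adjustment there were 12, 17, 18 and 14 for dimethoate EC10 to EC90, 5, 4, 16 and 8 for atrazine, 17, 16, 14 and 27 for carbendazim, 23 between the controls, 53, 39 and 14 between high and low concentrations of dimethoate, atrazine and carbendazim, and 39 over all groups. In this count 34.6% of all transcripts passed between dimethoate concentrations and 11.2% between the controls. The methods' t-test gave 6, 1, 40 and 23 for dimethoate, 9, 2, 5 and 11 for atrazine, 20, 24, 30 and 31 for carbendazim and 24 between the controls. Its shares of all transcripts were 19.8 and 17.2% at dimethoate EC50 and EC90, 17.3% at carbendazim EC90 and 14.9% between the controls. After Benjamini-Hochberg adjustment the t-test gave 2 at carbendazim EC10 and 0 elsewhere.

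Without the deviating scan there were 12 at dimethoate EC50, 1, 1 and 3 at atrazine EC10, EC20 and EC90, 7, 6, 11 and 16 for carbendazim, 15 between the controls, 15 and 1 between atrazine and carbendazim concentrations, and 35 over all groups. Scan as a random block gave 10 at dimethoate EC50, 0 at carbendazim EC90 and 6 between dimethoate concentrations. Slide as a fixed block gave 3 at dimethoate EC90, 0 at carbendazim EC90, between the controls and between dimethoate concentrations, and 3 over all groups. As a random block it gave 11 between dimethoate concentrations and 10 over all groups. Normexp gave 1 at carbendazim EC10, 1 at EC90 and 29 between dimethoate concentrations. It turned Contig107 round, to -0.075 at carbendazim EC90 and -0.097 between dimethoate concentrations. Quantile scaling gave 4 at carbendazim EC90 and 1 between carbendazim concentrations. The 75th percentile gave 13 between the controls, 8 of them higher, against 8 of 8 with the median, and moved the median of all transcripts by up to 0.29. The solvent control in place of water gave 0 at dimethoate EC50 and 3 at EC90.

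Leaving out 1 array gave 0 to 7 at dimethoate EC50, 4 to 8 at EC90, 0 to 1 at atrazine EC50 and at carbendazim EC50, 1 to 8 at carbendazim EC90, 0 to 11 between the controls, 7 to 46, 0 to 26 and 0 to 1 between concentrations of dimethoate, atrazine and carbendazim, and 10 to 28 over all groups. At carbendazim EC90 it was 1 without solvent control replicate 2, and 7 and 8 without dimethoate EC10 replicate 1 and EC20 replicate 2.

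With the replicate number as a block, 1 contig was called between carbendazim concentrations, 7 at dimethoate EC50, 6 at EC90 and 17 between dimethoate concentrations. Correlations of same-numbered arrays ran from -0.28 to 0.29, so the numbers do not pair the arrays. Of 41 calls in contigs, 39 held with this block, 33 with slide as a random block, 26 with scan as a random block, 7 with slide as a fixed block and 35 of 35 tested among detected transcripts. The causes were not tested. Signals near background limit Contig26, Contig92, Contig107, Contig117 and Contig143, and the control levels of Contig136.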
